A study of Caenorhabditis elegans with 18 samples.

Results

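Target of rapamycin (TOR) is a protein kinase that couples growth to nutrients, and its transcripts were followed here in Caenorhabditis elegans under 3 RNAi plasmids and at 2 adult ages. The genes are 9 named subunits and close partners of TOR complexes 1 and 2, taken by WormBase name: let-363, daf-15, rict-1, sinh-1, mlst-8, rheb-1, raga-1, ragc-1 and rsks-1. All 9 were found among the 46748 gene identifiers of the counts table, and all 9 were among the 14735 genes with enough counts to test.

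RNA came from whole N2 (wild-type) hermaphrodites treated with the plasmid L4440, M05B5.5 or T14F9.5 and aged 1 or 5 days, with 3 libraries in each of the 6 groups. L4440 is the vector without an insert and serves as the control. M05B5.5 is the sequence name of hlh-2 and T14F9.5 that of lin-32, which encode basic helix-loop-helix transcription factors. Every group thus shares the wild-type genotype and an RNAi plasmid, and no mutant of TOR is among them. Nothing in the labels tells whether a group holds separate cultures, and p-values then measure only a spread between samples that may be technical. A whole worm mixes its tissues, so fewer cells of a type and less RNA per cell cannot be told apart.

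As worked out largely in yeast and mammals, TOR acts in a pair of complexes that share the kinase. Complex 1 is built on raptor, is switched on at the lysosome by the small GTPases Rheb, RagA and RagC when amino acids are plentiful, and promotes translation through S6 kinase while it restrains autophagy. Complex 2 is built on rictor and SIN1 and acts through kinases such as AKT and SGK. In the worm, loss of let-363 or daf-15 arrests larvae, reduced complex 1 or S6 kinase activity lengthens adult life, and rict-1 governs fat storage, growth and the response to diet, chiefly from the intestine.

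The kinase is let-363 (WBGene00002583), which spans bases 5245743 to 5263424 of chromosome I (plus strand, WBcel235) and has 8560 exonic bases. mlst-8 (WBGene00015697), the LST8 subunit of both complexes, spans bases 4735251 to 4738102 of chromosome I (minus strand) and has 1702 exonic bases. daf-15 (WBGene00000911), the raptor of complex 1, spans bases 9386208 to 9394979 of chromosome IV (plus strand) and has 5883. rict-1 (WBGene00009245), the rictor of complex 2, spans bases 13098239 to 13116810 of chromosome II (minus strand) and has 5023. sinh-1 (WBGene00013261), the SIN1 subunit of complex 2, spans bases 12228305 to 12238242 of chromosome II (plus strand) and has 3610.

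The upstream GTPases are short genes. rheb-1 (WBGene00010038) spans bases 9454163 to 9456030 of chromosome III (minus strand), with 1192 exonic bases. raga-1 (WBGene00006414), the RagA GTPase, spans bases 11301359 to 11302776 of chromosome II (plus strand), with 1266. ragc-1 (WBGene00012497), the RagC GTPase that pairs with it, spans bases 11603613 to 11604933 of chromosome IV (minus strand), with 1101. rsks-1 (WBGene00012929), the S6 kinase, a substrate of complex 1 in mammals, spans bases 11245120 to 11252281 of chromosome III (plus strand), with 3050. All 9 are annotated as protein-coding, and 5 of them have more than 3000 exonic bases. Other genes share few of these bases: 107 in daf-15 with col-121 on the opposite strand, 62 in sinh-1 with the noncoding Y57A10A.44, 37 in rict-1 with col-86, 26 in mlst-8 with ugt-25 on the opposite strand, and 0 in the other members.

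Libraries held 27024193 to 43016293 counts. On a principal component analysis of log2 counts-per-million (CPM), replicate 1 of each day-5 group (called the first day-5 libraries) had scores of -22.5 to -19.4 on the first component, and replicates 2 and 3 (the later day-5 libraries) had 52.9 to 70.2. The day-1 libraries other than L4440 day-1 replicate 2 had -50.2 to -19.4, so the first day-5 libraries lay among them on this component. L4440 day-1 replicate 2 stood farthest from the rest, at -83.0. With each doubling of exonic gene length, log2 CPM relative to the 18-library mean dropped by 0.657 in it. The same slope was -0.243 in L4440 day-1 replicate 1, -0.174 in T14F9.5 day-1 replicate 2 and between -0.016 and 0.134 in the other 15 libraries. hlh-2 stood at 12.1 ± 0.682 CPM (SD, n = 3) in M05B5.5 against 41.3 ± 15.7 CPM in L4440 at day 1, and at 21.5 ± 9.33 against 57.2 ± 3.02 CPM at day 5, with no overlap at either age (20.3% and 1.64% of all genes were lower without overlap). Its log2 fold changes, -1.77 ± 0.29 and -1.41 ± 0.29, did not pass over all genes (edgeR, adjusted p = 0.0709 and 0.916). lin-32 showed no decrease under its own plasmid. In the libraries labelled T14F9.5 it stood at 2.19 ± 0.246 CPM against 2.05 ± 0.456 CPM in L4440 at day 1. At day 5 it stood higher, at 3.75 ± 2.34 against 0.576 ± 0.36 CPM, with 1.06, 4.92 and 5.29 CPM in T14F9.5 replicates 1, 2 and 3. The log2 fold changes of lin-32, 0.11 ± 0.62 and 2.71 ± 0.67, did not pass over all genes either.

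All 9 TOR genes were expressed at both ages and under every plasmid. To set genes beside each other, CPM were divided by exonic length in kilobases. Over the 18 libraries ragc-1 had the highest level, 184 ± 16.7 CPM per kilobase (SD, n = 18), followed by raga-1 at 102.6 ± 13.6, rsks-1 at 54.4 ± 18.8 and rheb-1 at 44.3 ± 6.67 CPM per kilobase. The 3 GTPases and the S6 kinase thus stood, on average, above the subunits of the complexes. daf-15 followed at 33.3 ± 8.97, mlst-8 at 30.9 ± 8.8, rict-1 at 29.2 ± 9.83 and let-363 at 24.9 ± 7.51 CPM per kilobase. sinh-1 had the lowest level, 5.44 ± 1.92 CPM per kilobase.

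The order at its ends was the same in every library: ragc-1 exceeded raga-1, raga-1 exceeded rsks-1, and let-363 exceeded sinh-1 in 18 of 18 libraries. rsks-1 exceeded rheb-1 in 15 of 18 libraries, and rheb-1 exceeded daf-15 in 17 of 18. These 4 subunits, daf-15, mlst-8, rict-1 and let-363, were not separated beyond their spread. daf-15 exceeded mlst-8 in 11 of 18 libraries, mlst-8 exceeded rict-1 in 10, and rict-1 exceeded let-363 in 12.

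The widest differences among the members lay within the day-1 control group. let-363 stood at 109, 35.4 and 186 CPM in L4440 day-1 replicates 1, 2 and 3, and daf-15 at 133, 45.7 and 197 CPM. rict-1 stood at 79.2, 41.1 and 118.9 CPM in the same libraries. Each of these large subunits was lowest in replicate 2 and highest in replicate 3. sinh-1 stood at 4.11, 1.5 and 15.6 CPM, and mlst-8 at 24.9, 11.5 and 47.0 CPM. rsks-1 had the widest range of all, at 50.1, 3.69 and 156 CPM.

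Among the GTPases the controls were closer together. rheb-1 stood at 40.9, 27.3 and 54.3 CPM and raga-1 at 110.0, 74.4 and 120.0 CPM, again lowest in replicate 2. ragc-1 went the other way, at 173, 245 and 193 CPM, so that replicate 2 held its highest level of all 18 libraries. The level in replicate 3 was 42.3 times that in replicate 2 for rsks-1, 10.4 times for sinh-1, 5.26 times for let-363, 4.32 times for daf-15, 4.07 times for mlst-8, 2.90 times for rict-1, 1.99 times for rheb-1, 1.61 times for raga-1 and 0.790 times for ragc-1. For 8 of the 9 members replicate 2 was the lowest of the 18 libraries. The share of all genes that were lowest in it is not given here, so the count is not set apart from them.

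**Figure D1:**
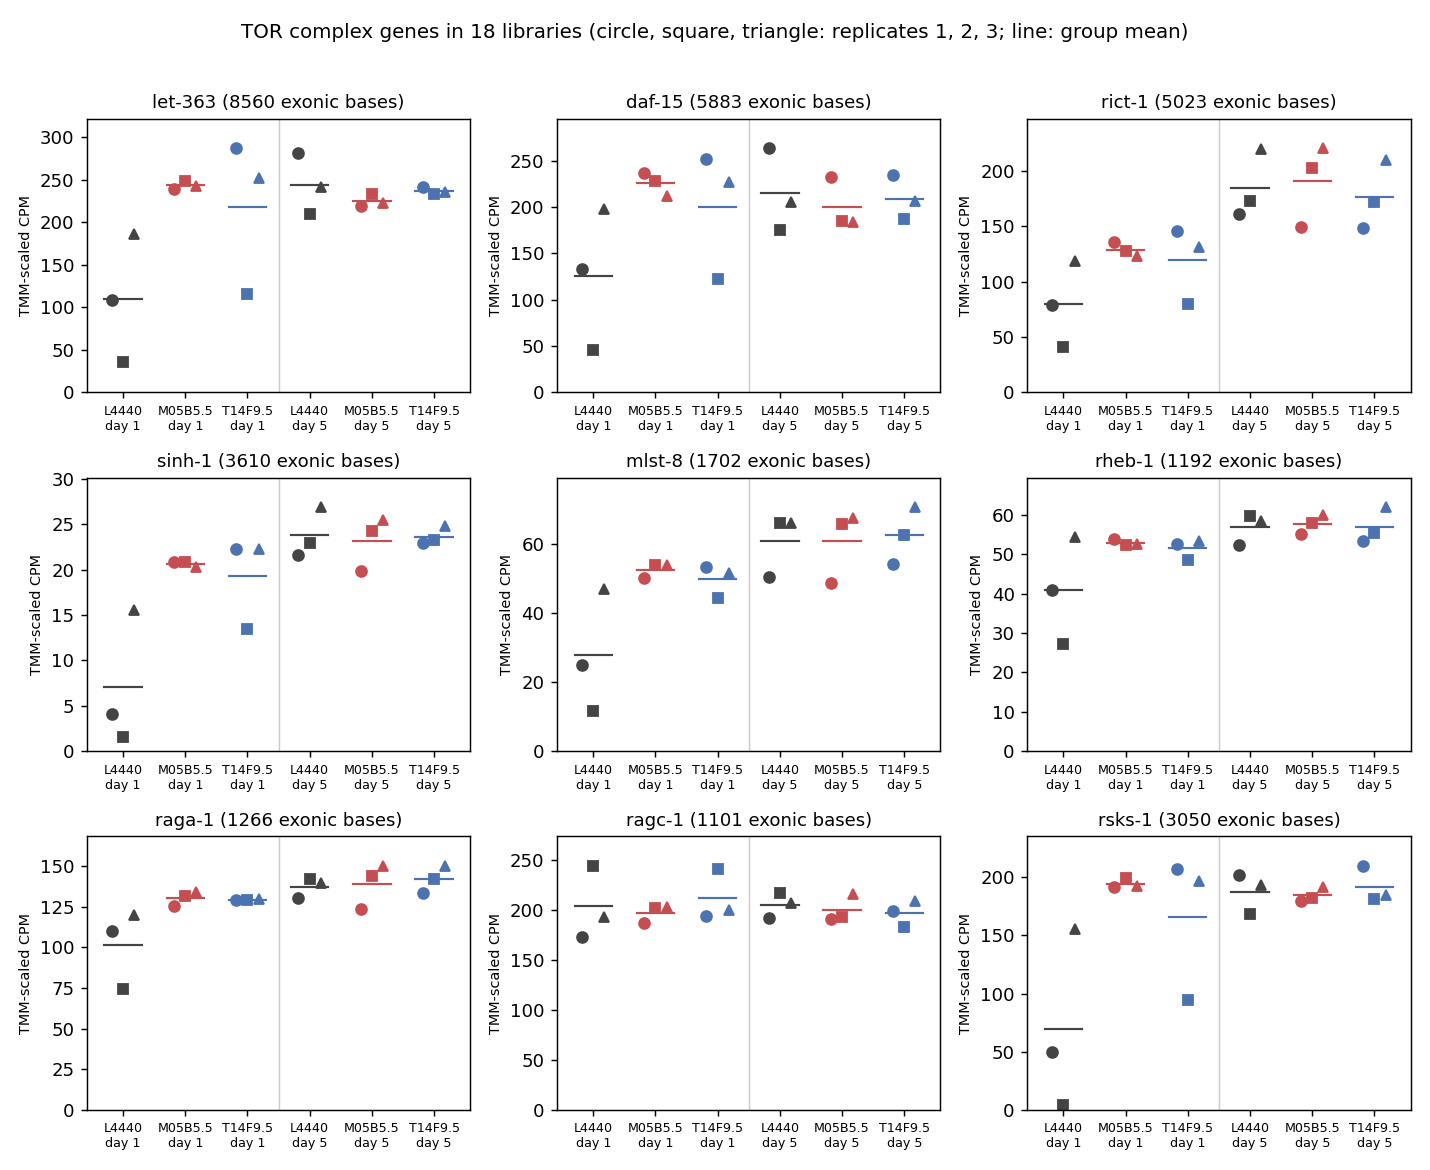
CPM (linear scale) of each TOR complex gene in each of the 18 libraries, 1 panel per gene, with groups along the x axis, 1 point per library and a bar at the mean of each group. The day-1 L4440 points are spread widely for rsks-1 (3.69 to 156 CPM) and sinh-1 (1.5 to 15.6 CPM) and closely for ragc-1 (173 to 245 CPM).

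The level of rsks-1 in that library rests on 86 counts, for which the exact 95% Poisson interval is 68.8 to 106 counts, or 2.95 to 4.55 CPM (counting error only). Its log2 level there deviated by -5.18 from its mean over all libraries, and 25 of the 14735 genes tested (0.17%) lay as low against theirs. sinh-1 deviated by -3.45 on the log2 scale, which 1.44% of the genes reached. let-363 deviated by -2.47 (3.22% of genes), mlst-8 by -2.09 (4.88%), daf-15 by -2.02 (5.19%) and rict-1 by -1.73 (7.47%). The deviations of rheb-1 (-0.93), raga-1 (-0.79) and ragc-1 (0.28) were ones that 19.8%, 23.2% and 59.5% of the genes reached or passed on the low side.

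These deviations were set beside the trend of all tested genes at the same exonic length in the same library. In replicate 2 the trend was at -1.45 for the length of rict-1, leaving -0.28 of its log2 deviation, and at -1.54 for daf-15, leaving -0.48. let-363 was left with -0.80. The trend took up most of the deviation of these 3 longest members. For shorter ones it took up little or none: mlst-8 was left with -1.74 on the log2 scale, and at the lengths of rheb-1 and raga-1 the trend was at 0.16 and 0.08, which left -1.09 and -0.86. ragc-1 lay at the trend, with 0.02 left. rsks-1 and sinh-1 are of middle length and lay far below the trend, with -4.12 and -2.23 left. In L4440 day-1 replicate 1 the same members stood lowest against the trend, sinh-1 with -1.60, rsks-1 with -1.07 and mlst-8 with -0.91. In replicate 3 all 9 members lay between -0.23 and 0.18 of it.

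**Figure D2:**
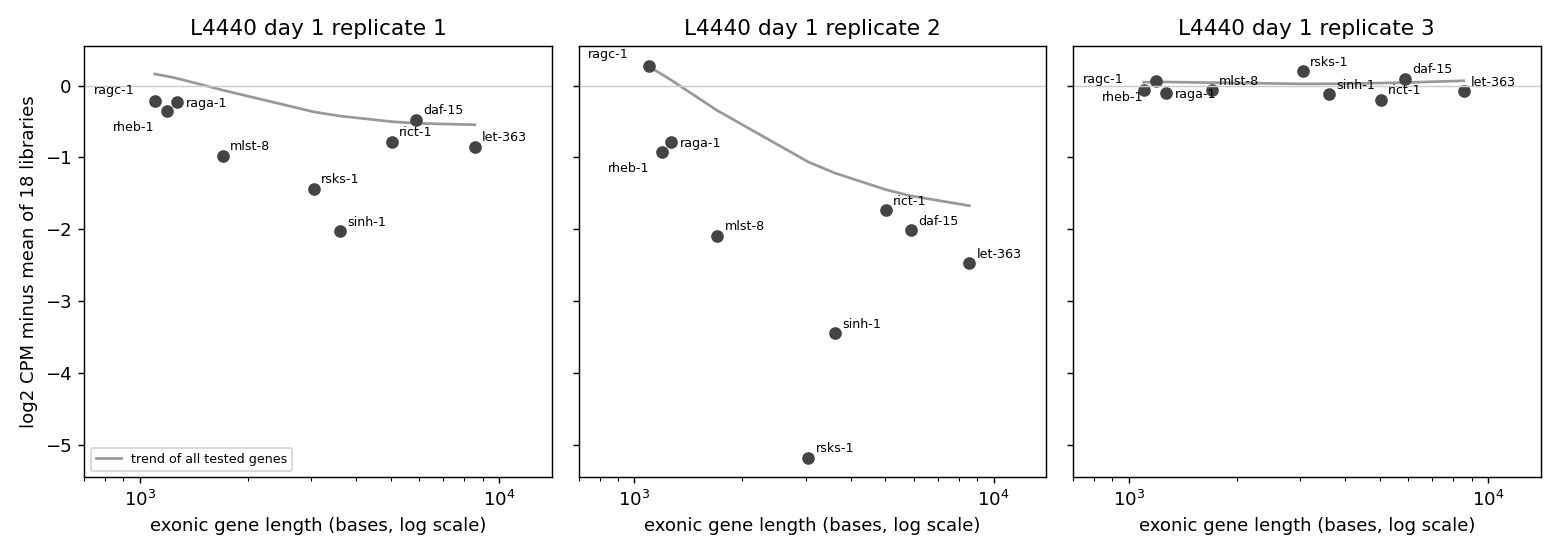
Log2 CPM of each TOR complex gene minus its mean over 18 libraries (y axis) against exonic gene length in bases (x axis, log scale), in the 3 L4440 day-1 libraries. The grey line joins the trend of all tested genes at the lengths of the members: in replicate 2 rict-1 lies at -0.28 and rsks-1 at -4.12 relative to it, while in replicate 3 all points lie near 0.

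M05B5.5 was compared with L4440 at day 1 to see whether TOR transcripts differ between young adults given the hlh-2 plasmid and controls. Every member but ragc-1 had a higher mean in M05B5.5 (8 of 9, beside 48.0% of all genes with a fold change above 0), and 7 of the 9 did not overlap the controls, but 0 members passed the test. let-363 stood at 240, 248 and 243 CPM against 109, 35.4 and 186 CPM in L4440, a log2 fold change of 1.14 ± 0.41 (SE; edgeR, adjusted p = 0.0884). The M05B5.5 libraries lay close together and all above the controls. sinh-1 stood at 20.9, 20.8 and 20.3 CPM against 4.11, 1.5 and 15.6 CPM, a log2 fold change of 1.54 ± 0.51 (edgeR, adjusted p = 0.0797), again without overlap. rsks-1 stood at 192, 199 and 193 CPM against 50.1, 3.69 and 156 CPM, a log2 fold change of 1.48 ± 0.71 (edgeR, adjusted p = 0.164). The wide spread of the controls goes into the error of this value.

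Of the other subunits in that comparison, mlst-8 was at a log2 fold change of 0.92 ± 0.33 (edgeR, adjusted p = 0.0881), daf-15 at 0.85 ± 0.37 (adjusted p = 0.135) and rict-1 at 0.69 ± 0.30 (adjusted p = 0.137). The GTPases were nearer to 0, with rheb-1 at 0.38 ± 0.17 (adjusted p = 0.152), raga-1 at 0.36 ± 0.14 (adjusted p = 0.106) and ragc-1 at -0.05 ± 0.13 (adjusted p = 0.837). The median over the 9 members was 0.85, beside -0.03 over all genes tested. edgeR called 0 of 14735 genes (0.0%), and 31.8% of all genes had an unadjusted p under 0.05, beside 7 of the 9 members. Groups did not overlap, with M05B5.5 higher, for 21.0% of all genes. DESeq2 called 2386 genes (16.2%) and 3 members, let-363, sinh-1 and mlst-8.

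The size of these differences rested on the controls. Without L4440 day-1 replicate 2 the median of the members was 0.45. Without the 3 libraries of steepest length trend it was 0.16, with sinh-1 the highest at 0.40; this leaves 1 day-1 control, assumed to vary like the other groups. With an offset for gene length the median was 0.41 and rict-1 was at -0.04. Without replicate 3, the control of flattest length slope, the median was 1.35, and 8 members and 33.7% of all genes passed. No sequencing lane held libraries of both groups, so the effects of lane and plasmid cannot be told apart. The summed level of the body wall muscle markers (3 genes) was 466 to 846 CPM in L4440 and 987 to 1151 CPM in M05B5.5, and that of the germ line markers (7 genes) 5187 to 7206 CPM and 7047 to 7410 CPM. Intestine markers stood at 32830 to 43210 CPM in L4440 and 44200 to 50950 CPM in M05B5.5. Pharynx markers stood at 36.3 to 69.1 CPM and 86.5 to 91.0 CPM. By sum, neuronal markers in M05B5.5 (231 to 232 CPM) lay within the L4440 range (204 to 271 CPM), as did epidermal markers (386 to 407 within 376 to 534 CPM). As a mean of log2 (CPM + 1) over the markers, both lists reached above that range. Neuronal markers were then at 4.843 to 4.898 in M05B5.5 and 4.345 to 4.857 in L4440, and epidermal markers at 4.274 to 4.848 and 4.081 to 4.277. No muscle or germ line marker was at 0 in any library, and the part of the markers in the result was not tested.

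T14F9.5 was compared with the same controls. All 9 members had a higher fitted level in T14F9.5 at day 1 (47.6% of all genes did), with a median log2 fold change of 0.68 beside -0.03 over all genes, and again 0 members and 0 of 14735 genes (0.0%) passed in edgeR. At an unadjusted p under 0.05 stood 4 members and 22.8% of all genes, and DESeq2 called 695 genes (4.72%) and, of the members, sinh-1. let-363 stood at 287, 116 and 252 CPM in T14F9.5, so that its second library fell within the range of the controls (log2 fold change 0.99 ± 0.41, edgeR, adjusted p = 0.177). sinh-1 stood at 22.3, 13.4 and 22.3 CPM (1.44 ± 0.51, edgeR, adjusted p = 0.147) and rsks-1 at 207, 94.7 and 197 CPM (1.25 ± 0.70, edgeR, adjusted p = 0.287). In each, replicate 2 was the lowest T14F9.5 library and overlapped the controls.

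Only raga-1 lay above all controls in 3 of 3 T14F9.5 libraries, at 129.0, 129.2 and 129.5 CPM against 110.0, 74.4 and 120.0 CPM (log2 fold change 0.35 ± 0.14, edgeR, adjusted p = 0.171). Over all genes 8.56% were higher without overlap. The descriptions of T14F9.5 replicate 2 and L4440 replicate 1 give 1 index and lane for both; without this pair the median of the members was 0.85. Without the 3 libraries of steepest length trend it was 0.21, with 1 control left, and without L4440 day-1 replicate 3 it was 1.18, with 8 members and 25.9% of all genes past the threshold. Both plasmids were set against the same 3 controls, so their values side by side are not separate evidence.

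**Figure D3:**
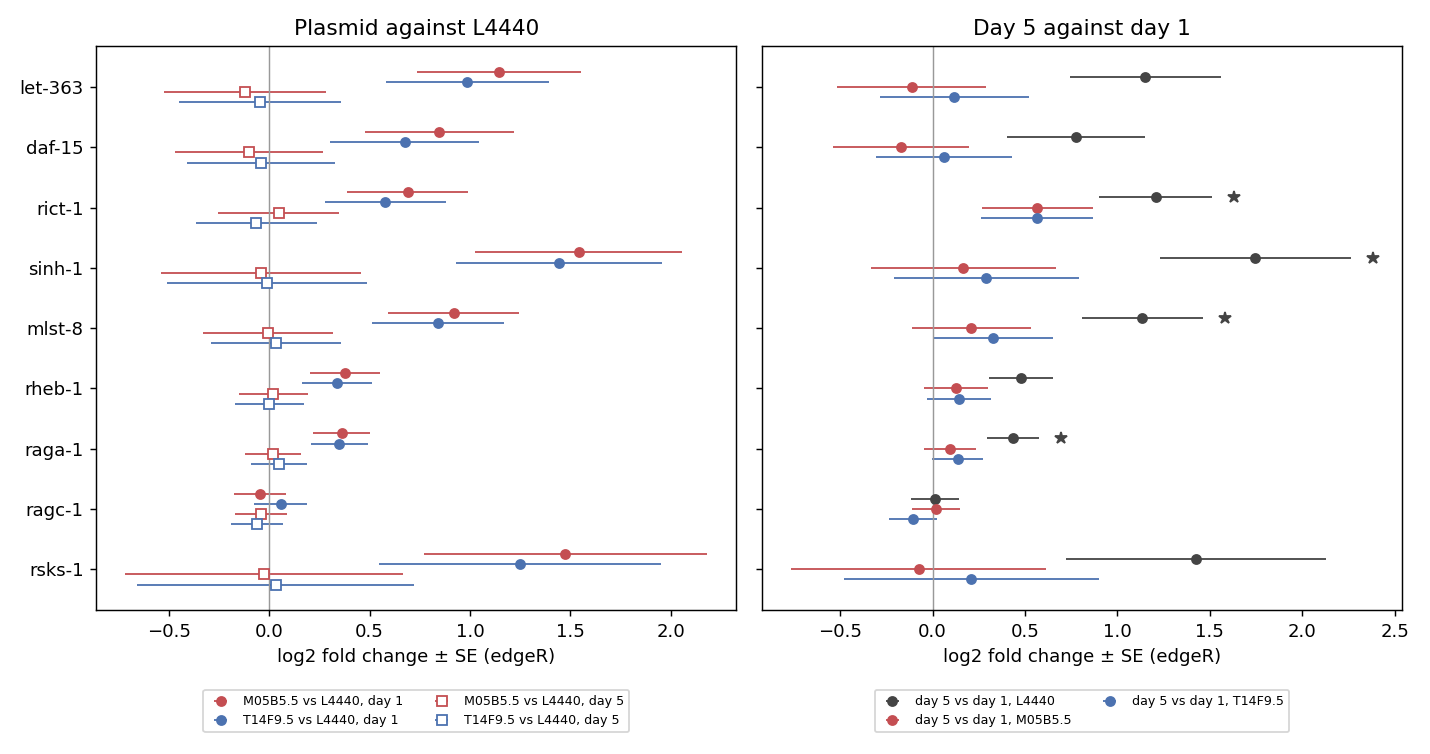
Log2 fold change ± SE (edgeR, x axis) of each TOR complex gene (y axis), for each plasmid against L4440 at day 1 and day 5 (left) and for day 5 against day 1 under each plasmid (right), with stars at an adjusted p under 0.05. At day 5 the plasmid values lie between -0.12 and 0.05, and the stars stand at rict-1, sinh-1, mlst-8 and raga-1 for age in L4440.

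At day 5 the members did not differ detectably between plasmids. In M05B5.5 against L4440 their log2 fold changes lay between -0.12 (let-363) and 0.05 (rict-1), with a median of -0.03, and in T14F9.5 between -0.06 (rict-1) and 0.05 (raga-1), with a median of -0.01. let-363 stood at 219, 234 and 223 CPM in M05B5.5, at 242, 234 and 235.5 CPM in T14F9.5 and at 282, 209 and 242 CPM in L4440. rsks-1 stood at 180, 182 and 192 CPM, 210.1, 181 and 185 CPM, and 202, 168 and 193 CPM in the same order. For rsks-1 all 3 groups overlapped. For let-363 both plasmids overlapped L4440, while the M05B5.5 libraries lay just below those of T14F9.5 (highest 233.6, lowest 233.7 CPM), a pair that was not tested. edgeR called 0 members and 0 of 14735 genes (0.0%) in both comparisons; 200 genes (1.36%) and 93 genes (0.631%) had an unadjusted p under 0.05, none of them a member, and DESeq2 called 8 and 0 genes. The SE of these values ran from 0.13 for ragc-1 to 0.69 for rsks-1, so changes of the size of the SE would not have been seen. With lane as a term the values lay between -0.16 and -0.02 in M05B5.5 and between -0.61 (rict-1) and 0.18 (daf-15) in T14F9.5.

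Day 5 was compared with day 1 in the L4440 worms to ask how TOR transcripts change in early adult life. Both complex 2 subunits, the shared LST8 subunit and the RagA GTPase rose: 4 of the 9 members passed, beside 6.72% of all genes that were called higher and 9.11% called lower (2332 genes, 15.8%, in all). rict-1 stood at 161, 173 and 219 CPM at day 5 against 79.2, 41.1 and 118.9 CPM at day 1, a log2 fold change of 1.21 ± 0.31 (edgeR, adjusted p = 0.0355). sinh-1 stood at 21.6, 22.9 and 26.9 CPM against 4.11, 1.5 and 15.6 CPM (1.75 ± 0.52, edgeR, adjusted p = 0.0396). In both genes every day-5 library lay above every day-1 library.

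mlst-8 stood at 50.7, 66.4 and 66.4 CPM at day 5 against 24.9, 11.5 and 47.0 CPM (log2 fold change 1.13 ± 0.33, edgeR, adjusted p = 0.038). raga-1 stood at 130.2, 142 and 140 CPM against 110.0, 74.4 and 120.0 CPM (0.44 ± 0.14, edgeR, adjusted p = 0.0488), close to the threshold. Neither gene's groups overlapped. let-363 stood at 282, 209 and 242 CPM against 109, 35.4 and 186 CPM (1.15 ± 0.41, edgeR, adjusted p = 0.0622), also without overlap, and did not pass. Nor did rsks-1 (1.42 ± 0.70, edgeR, adjusted p = 0.144), daf-15 (0.78 ± 0.37, adjusted p = 0.132) or rheb-1 (0.48 ± 0.17, adjusted p = 0.0661). ragc-1 was at 0.01 ± 0.13 (edgeR, adjusted p = 0.954), with 192, 217 and 207 CPM at day 5 inside the range of 173 to 245 CPM at day 1. The median of the members was 1.13 and that of all genes -0.03. At an unadjusted p under 0.05 stood 6 of the 9 members and 39.2% of all genes. Groups did not overlap, with day 5 higher, for 6 of the 9 members and for 15.6% of all genes.

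The 4 calls depended on single libraries. With an offset for gene length edgeR called 0 genes in all: rict-1 was then at 0.58 (edgeR, adjusted p = 0.0783), under 1.21 in the fit without it, whereas sinh-1, mlst-8 and raga-1 kept values of 1.42, 1.09 and 0.56 (adjusted p = 0.0627 each). The calls were also lost without L4440 day-1 replicate 1 or 2, without L4440 day-5 replicate 2 or 3, and with only the 2 compared groups in the fit; in each of these edgeR called 0 genes in all. So it did without the 3 libraries of steepest length trend, which leaves 1 L4440 day-1 library. No lane held libraries of both ages under any of the 3 plasmids. Age and lane cannot be told apart in L4440 or T14F9.5, and in M05B5.5 only through lanes shared with T14F9.5 day-5 libraries. Without L4440 day-1 replicate 3, 8 members and 37.0% of all genes passed, and without L4440 day-5 replicate 1, 3 members and 18.0% did (raga-1 at an adjusted p of 0.0534). Without the first day-5 libraries the same 4 members passed, beside 30.1% of all genes, and again when L4440 day-1 replicate 2 was left out with them, beside 30.6%. With no filter on low counts rict-1 and 2.8% of all genes passed. DESeq2 called 6 members and 26.4% of all genes, with let-363 and rheb-1 in addition.

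**Figure D4:**
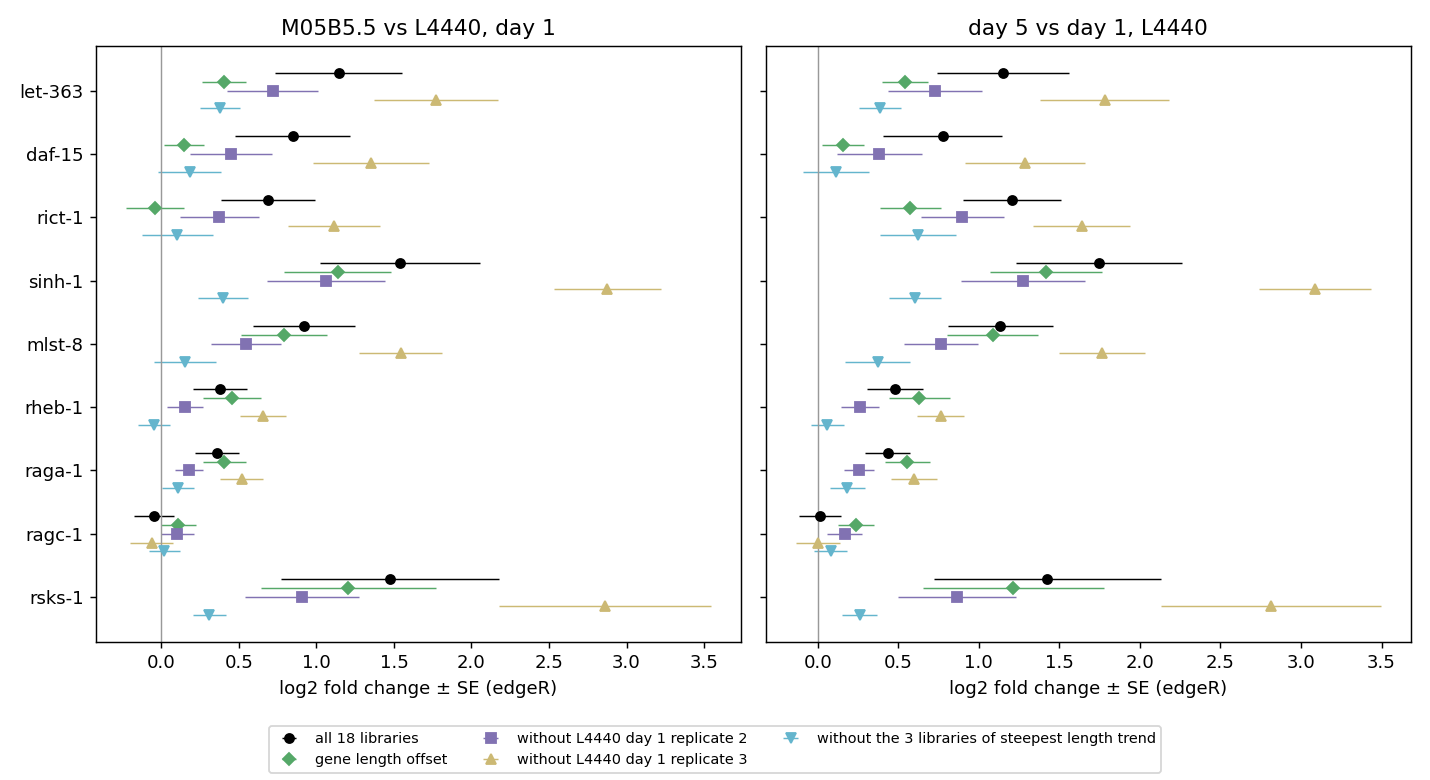
Log2 fold change ± SE (edgeR, x axis) of each TOR complex gene (y axis) in M05B5.5 against L4440 at day 1 (left) and in day 5 against day 1 in L4440 (right), with all 18 libraries, with an offset for gene length, and without named day-1 libraries. For age, sinh-1 moves from 1.75 to 3.09 without L4440 day-1 replicate 3, and the median of the members from 1.13 to 0.26 without the 3 libraries of steepest length trend.

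Age was compared in the same way under the other plasmids, whose day-1 groups do not include those controls. In M05B5.5 and T14F9.5 edgeR called 0 members and 0 of 14735 genes (0.0%), with 12.9% and 10.2% of all genes and 0 members under an unadjusted p of 0.05; DESeq2 called 146 and 11 genes and 0 members. The median of the members was 0.09 in M05B5.5 and 0.14 in T14F9.5, beside -0.01 and 0.01 over all genes. rict-1 had the largest value of the 9 under both plasmids. It stood at 149, 202 and 221 CPM at day 5 against 135, 128 and 123 CPM at day 1 in M05B5.5 (log2 fold change 0.57 ± 0.30, edgeR, adjusted p = 0.425), and at 148, 171 and 209 CPM against 146, 80.1 and 132 CPM in T14F9.5 (0.57 ± 0.30, edgeR, adjusted p = 0.512). The groups did not overlap under either plasmid, which also held, with day 5 higher, for 12.8% and 7.99% of all genes. With the first day-5 libraries and L4440 day-1 replicate 2 left out, rict-1 passed under both, at 0.74 (edgeR, adjusted p = 0.0205) and 0.70 (adjusted p = 0.0297); it was then 1 of 9 members, beside 31.6% and 28.0% of all genes. Without T14F9.5 day-1 replicate 2 its value in T14F9.5 was 0.34, and with lane as a term its value in M05B5.5 was 1.24 ± 0.77, neither past the threshold.

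The other members changed less under these plasmids. let-363 was lower in 3 of 3 day-5 M05B5.5 libraries, at 219, 234 and 223 CPM against 240, 248 and 243 CPM, but only by a log2 fold change of -0.11 ± 0.40 (edgeR, adjusted p = 0.929), and 16.0% of all genes were lower without overlap. daf-15 was at -0.17 ± 0.37 in M05B5.5 and 0.06 ± 0.37 in T14F9.5 (edgeR, adjusted p = 0.867 and 0.954). mlst-8 was at 0.21 ± 0.32 and 0.33 ± 0.32, sinh-1 at 0.17 ± 0.50 and 0.29 ± 0.50, and rsks-1 at -0.08 ± 0.69 and 0.21 ± 0.69.

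Whether the plasmids change the effect of age was tested as an interaction. For M05B5.5 the 9 members lay between -1.58 (sinh-1) and 0.01 (ragc-1), with a median of -0.92, and let-363 was at -1.26 ± 0.57 (edgeR, adjusted p = 0.38). For T14F9.5 they lay between -1.46 (sinh-1) and -0.12 (ragc-1), with a median of -0.71. edgeR called 0 members and 0 of 14735 genes (0.0%) in both, with 13.1% and 5.19% of all genes, and 2 and 0 members, under an unadjusted p of 0.05. Without L4440 day-1 replicate 3, 5 and 2 members passed, beside 14.2% and 4.0% of all genes; without the 3 libraries of steepest length trend, which leaves 1 day-1 control, the M05B5.5 median was -0.16. A rise with age in L4440 that passed the test was therefore not shown to differ from that under the other plasmids.

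Across all plasmids, rict-1 was the member whose ages stood apart: its lowest day-5 library (148 CPM) lay above its highest day-1 library (146 CPM), although by a small margin. This was so for 123 of 14735 genes (0.835%) and for 1 of the 9 members. The other subunits overlapped, with daf-15 at 176 to 264 CPM at day 5 and 45.7 to 252 CPM at day 1.

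Within day 5 some members followed the split between the first and the later libraries, which the labels do not name. This view was chosen after the values were seen and carries no test. Of the 9 members 4 were higher without overlap in the later libraries (rict-1, mlst-8, rheb-1 and raga-1), 1 was lower (daf-15) and 4 overlapped (let-363, sinh-1, ragc-1 and rsks-1). Over all genes 22.4% were higher and 22.9% lower without overlap. daf-15 stood at 232 to 264 CPM in the 3 first day-5 libraries and at 176 to 206 CPM in the 6 later ones. rict-1 went the other way, at 148 to 161 CPM in the first and 171 to 221 CPM in the later libraries. mlst-8 stood at 48.9 to 54.3 and 62.7 to 70.9 CPM, and raga-1 at 123 to 133 and 140 to 150.3 CPM. Per kilobase, the ratio of rict-1 to daf-15, the subunits that set complex 2 apart from complex 1, was 0.716 to 0.752 in the first and 1.07 to 1.41 in the later day-5 libraries. At day 1 it was 0.656 to 0.769, except in L4440 day-1 replicate 2, where it was 1.05. A ratio of transcripts gives no measure of the amount of either complex.

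**Figure D5:**
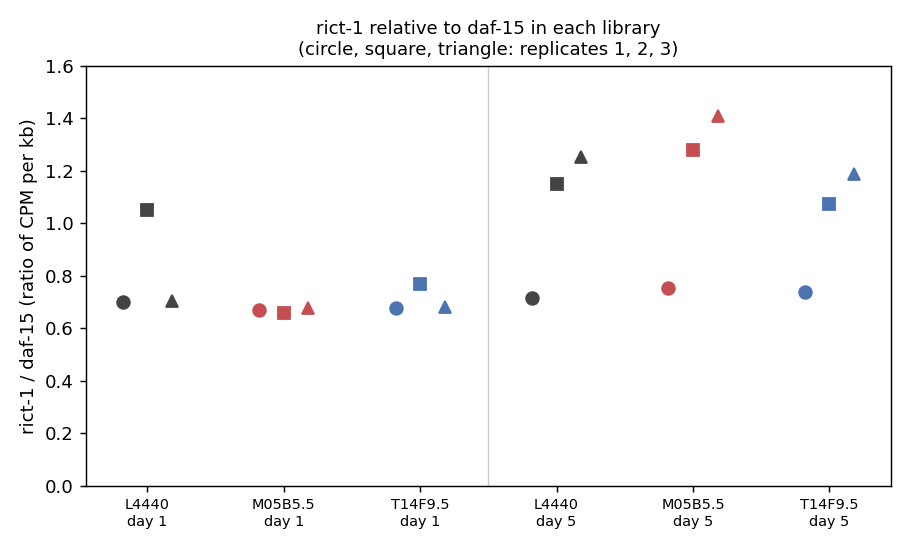
Ratio of rict-1 to daf-15 (each in CPM per kilobase, y axis from 0) in each of the 18 libraries by group (x axis), with circles, squares and triangles for replicates 1, 2 and 3. The later day-5 libraries lie between 1.07 and 1.41 and the first ones between 0.716 and 0.752.

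Some tissue markers moved with the same split: muscle, pharynx, intestine and epidermal sums were lower in the later libraries without overlap. Germ line and neuronal sums overlapped. A sum rests mostly on its most abundant markers, such as the vit genes for intestine and snb-1 for neurons. As a mean of log2 (CPM + 1) over the markers, neurons were lower in the later libraries without overlap (4.629 to 4.715 against 4.859 to 4.911). By that mean intestine overlapped (8.863 to 9.589 in the later, 9.455 to 9.702 in the first libraries), and the other lists named here stood as by sum. The summed level of the 3 body wall muscle markers was 1127 to 1261 CPM in the first and 349 to 478 CPM in the later day-5 libraries, and 466 to 1264 CPM at day 1. The 3 pharynx markers stood at 97.2 to 100.4, 26.2 to 39.7 and 36.3 to 91.1 CPM, the 6 intestine markers at 49280 to 59170, 24970 to 42650 and 32830 to 52330 CPM, and the 7 germ line markers at 7578 to 7969, 7940 to 10090 and 5187 to 7644 CPM in the same order. Means were higher at day 5 for 6 of the 7 germ line markers, 1 of the 6 intestine markers, 2 of the 4 neuronal and 2 of the 4 sperm markers, 1 of the 4 epidermal markers and 0 of the 3 muscle and 0 of the 3 pharynx markers. Neuronal markers stood at 204 to 271 CPM over all libraries, with 234 to 239 CPM in the first and 232 to 256 CPM in the later day-5 libraries. Epidermal markers stood at 374 to 534 CPM at day 1, and at 260 to 347 CPM in the first and 201 to 222 CPM in the later day-5 libraries. Sperm markers were near 0, at 0.167 to 6.68 CPM over all libraries, with msp-76 and msp-78 at 0 in some. Within day 5 their sum was higher in the later libraries without overlap (0.632 to 1.58 CPM against 0.167 to 0.491 CPM in the first). The part of these markers in the differences of rict-1, daf-15, mlst-8 and raga-1 was not tested.

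Other genes of the pathway, 30 in all, were read for comparison by role. For age in L4440, 4 of the 30 rose and 1 fell, with a median of 0.46; the 5 calls are 16.7% of the list, near the 15.8% of all genes called. Of the 5, sbp-1, the SREBP factor of lipid synthesis, rose from 19.4 ± 5.17 to 37.6 ± 4.67 CPM (n = 3 each; log2 fold change 0.96 ± 0.24, edgeR, adjusted p = 0.0355). unc-51, the worm's ULK1-type kinase that starts autophagy, rose by 0.55 ± 0.17 on the log2 scale (edgeR, adjusted p = 0.0422). akt-1, of the AKT family that complex 2 phosphorylates in mammals, rose by 0.54 ± 0.17 (edgeR, adjusted p = 0.0449). rps-6, the ribosomal protein S6, fell from 1968 ± 889 to 1003 ± 188 CPM (-0.97 ± 0.26, edgeR, adjusted p = 0.0357), with a day-1 range of 1382 to 2991 CPM. The fifth, outside the naming rule, was lars-1, a leucyl-tRNA synthetase, at 0.51 ± 0.14 (edgeR, adjusted p = 0.0368). These calls too were lost in each setting in which edgeR called 0 genes.

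By role, the medians for age in L4440 were 0.40 over 11 nutrient input and stability genes, 0.54 over 3 kinases after complex 2, -0.27 over 9 translation genes, 0.36 over 2 autophagy genes and 0.65 over 5 transcription and lipid regulators. In the other comparisons 0 of the 30 passed. In M05B5.5 against L4440 at day 1 their median was 0.42, with rps-6 at -0.60 ± 0.25 (edgeR, adjusted p = 0.127) and ifg-1, the eIF4G scaffold of translation initiation, at 0.74 ± 0.33 (adjusted p = 0.144). In T14F9.5 the median was 0.30, with rps-6 at -0.45 (edgeR, adjusted p = 0.294) and ifg-1 at 0.57 (adjusted p = 0.305). At day 5 both genes lay between -0.15 and 0.10 under either plasmid, and the medians of the 30 were -0.01 in M05B5.5 and 0.02 in T14F9.5.

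The profile of let-363 over the 18 libraries, centred on its mean, was closest to those of cdk-12, mrck-1, gbf-1, wnk-1 and rme-8, with root-mean-square differences of 0.065, 0.078, 0.082, 0.093 and 0.099 on the log2 scale. All 5 are long genes, of 4127 to 7387 exonic bases. Among the members daf-15 was closest to let-363 (0.194). raga-1 and rheb-1 were the closest pair (0.08), and rict-1 was nearest to mlst-8 (0.227). rsks-1 had no near neighbour among the members, with sinh-1 at 0.466.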

How the data were processed

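RNA-seq libraries of 18 whole-worm samples were prepared from total RNA with Illumina's TruSeq RNA kit (version 2), per the labels' protocols. The submitters' processing notes name bcl2fastq 1.8.4, STAR 2.4.1d, featureCounts 1.4.6-p4 and the build WBcel235. The strand setting, the treatment of reads with several positions and the annotation release are not given in the sources used here. The deposited table holds raw read counts per gene, used for all values, and 0 of its columns lacked a sample. The deposited table of RPKM values was not used here. Gene positions and exonic lengths (union of exons) were taken from the Ensembl gene models for WBcel235; these held 46449 of the 46748 gene identifiers and lacked 299. All 9 members, 30 pathway genes and 31 tissue markers were matched by name.

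Counts were tested with edgeR 4.0.16 in R 4.3.3 on all 18 libraries with 1 term per group: filterByExpr at a minimum count of 10 (14735 genes), TMM scaling, glmQLFit with robust set (12 residual degrees of freedom), glmQLFTest, and Benjamini-Hochberg adjustment over all genes tested in each of 9 comparisons, at 0.05. Tests are two-sided. SE are the log2 fold change over the square root of the F statistic. CPM are TMM-scaled, and log2 CPM use a prior count of 2. The length trend is a natural spline with 4 degrees of freedom. The script was tested on simulated counts. Even the most alike pair of libraries differed beyond sampling noise (chi-square per degree of freedom 4.52), so none was counted as a duplicate. Replicates are numbered by accession order and pair no samples.

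The members and lists were chosen with earlier results of these data known. All members are named. Of the 30 pathway genes, up to 4 past the threshold with the largest change are named per comparison, or the 2 most abundant where none passed. Nearest profiles are the 5 genes of smallest root-mean-square difference. Alternatives were DESeq2 1.42.0, RLE factors, no filter, the compared groups alone, lane as a term, a gene length offset, and leaving out each library or the first day-5 libraries. Leaving out the 3 libraries of steepest length trend (L4440 day-1 replicates 1 and 2 and T14F9.5 day-1 replicate 2), and the pair of the same index and lane, was added after seeing the data. Figures were drawn with matplotlib 3.10.9.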

Additional observations from a re-analysis of the deposited data

Results flagged for a closer look

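For let-363, libraries of the 2 ages stood apart in opposite directions under 2 plasmids, though neither change passed: all 3 day-5 L4440 libraries lay above all day-1 ones (log2 fold change 1.15 ± 0.41, edgeR, adjusted p = 0.0622; 15.6% of all genes were higher without overlap), and all 3 day-5 M05B5.5 libraries lay below all day-1 ones (-0.11 ± 0.40, adjusted p = 0.929; 16.0% of all genes were lower without overlap). The M05B5.5 value was 0.07 with the gene length offset. The difference between the effects was -1.26 ± 0.57 and did not pass as an interaction (edgeR, adjusted p = 0.38); over 20 alternatives it lay between -1.89 and -0.47 (adjusted p = 0.0306 to 1.0), past the threshold in 1, without L4440 day-1 replicate 3.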

How the results depend on the processing

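Of 1269 values of single members under an alternative, 1202 kept their side of the threshold, 32 lost a call, 35 gained one (27 of them without L4440 day-1 replicate 3) and 0 called values changed sign; a change of sign in values never called was not counted. All calls over single members concern the day-1 comparisons with L4440, age and its interactions. DESeq2 called 3 members and 2386 genes in M05B5.5 against L4440 at day 1, 8 genes at day 5, 1 member and 695 genes in T14F9.5 at day 1, and 3884, 146 and 11 genes for age in L4440, M05B5.5 and T14F9.5. For age in L4440, where 4 members and 2332 genes were called, no filter gave 1 member and 715 genes, and the compared groups alone, the length offset and leaving out the 3 libraries of steepest length trend each gave 0 members and 0 genes. The length offset gave 1 gene in M05B5.5 at day 1 and 1 for age in M05B5.5. Without the first day-5 libraries 3 genes were called in M05B5.5 and 1 in T14F9.5 at day 5, and 4495, 3049 and 2676 for age in L4440, M05B5.5 and T14F9.5. With L4440 day-1 replicate 2 also left out, 4 genes were called in M05B5.5 at day 1, 4 in M05B5.5 and 1 in T14F9.5 at day 5, and for age 4548, 4699 and 4166, with 1 member (rict-1) in each of M05B5.5 and T14F9.5. Leaving out single libraries gave 0 to 8 members in both day-1 plasmid comparisons (0 to 5042 genes in M05B5.5, 0 to 3883 in T14F9.5) and for age in L4440 (0 to 5533 genes), 0 to 733 genes for age in M05B5.5, and 0 to 5 members (0 to 2128 genes) and 0 to 2 members (0 to 599 genes) for the interactions of M05B5.5 and T14F9.5. In each range with members the highest count came without L4440 day-1 replicate 3. The cause was not tested, beyond the fewer libraries or genes that an alternative holds. No paired analysis was possible because the labels carry no replicate numbers. Depth limits little here: the lowest count of a member in a library was 35 (sinh-1).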

Other observations

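Among the other pathway genes, L4440 day-1 replicate 2 also held extremes, named here after their values were seen. fnip-2 and flcn-1, worm counterparts of the folliculin-interacting protein and folliculin which act on the Rag GTPases in mammals, deviated by -4.25 and -3.06 from their means on the log2 scale, with 87 and 299 counts; 0.604% and 1.91% of the genes tested lay as low. lpin-1, the lipin phosphatase, deviated by -2.16. rps-6 lay 1.28 above its mean and the eIF4E genes ife-1 and ife-5 lay 1.08 and 1.01 above. The named genes that stood lowest have 3063 to 4587 exonic bases and those that stood highest 816 to 995. Length did not order the whole list: lmtr-5 (918 bases) deviated by -1.33, lmtr-2 (508 bases) by 0.55 and lars-1 (3741 bases) by -0.57. In the same library the summed neuronal markers stood at 270.5 CPM (204 to 253 in the other day-1 libraries). The epidermal sum was 534 CPM (374 to 407) and the muscle sum 466 CPM (652 to 1264). Such sums rest mostly on the most abundant markers. As a mean of log2 (CPM + 1) over the markers, the neuronal list was lower there, at 4.345 (4.804 to 4.898 in the other day-1 libraries). By that mean the epidermal list, at 4.081, lay within the range of the others (4.047 to 4.848).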
